A study of Mus musculus with 11 samples.

Results

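Colitis of Il10-/- mice, whose gene for the cytokine interleukin 10 is disrupted, was set against colitis caused by dextran sulfate sodium (DSS), a polymer in the drinking water that injures the colon epithelium. The cells were those of the single Il10-/- sample, 5831 of the 55603 cells in the 11 samples of the series, and they were compared with 22696 cells of the 6 DSS samples of the same batch (A). Each of these 7 samples pooled mucosa from 8 mice, and its cells were frozen, then thawed and run on the same day. The outer muscle was stripped off, and dead cells were removed after enzymatic digestion. The DSS mice were wild type, aged about 2 months, given 3% DSS for 6 days and dissected on day 6, 9, 12, 16, 19 or 23 after the first exposure. The Il10-/- mice, for which no DSS is recorded, lived in a specific pathogen-free facility and were about 10 months old. A sample of 1820 cells from uninjured wild-type mice aged about 2 months, of the same batch, is given for reference. Genotype, age, housing and DSS exposure cannot be told apart in this comparison, and the allele and strain are not given in the sources used here. With 1 Il10-/- pool there is no replicate of that group, so the Il10-/- value was placed against the range of the DSS samples.

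Interleukin 10 acts on macrophages and other leukocytes to limit their inflammatory response to gut bacteria, and mice without it develop a chronic, T cell driven colitis. DSS colitis starts from epithelial damage, with an early influx of neutrophils and monocytes and a later repair phase. Interferon gamma from T cells induces MHC class I and class II antigen presentation in many cell types, epithelium included, the latter through the transcription factor CIITA.

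The Il10-/- sample held 24896041 counts, with a median of 2641 UMIs (unique molecules) per cell. The DSS samples had median depths from 2130.5 to 2587 UMIs per cell, and each shared 22 to 40 cell barcodes with the Il10-/- sample. Cell types are the authors' deposited annotation, and in each of the 9 types with at least 30 cells in all 7 samples the markers of that type had the highest summed level of the 17 marker lists examined. A gene was called when its Il10-/- CPM (the count scaled to the total of its sample and type) lay at least 2-fold beyond all 6 DSS values and the exact 95% interval of the count ratio to the nearest DSS sample excluded 1. That interval covers counting error only. Where samples vary, the rule calls genes below the range more readily than above it, and raised abundant genes lower the CPM of the rest, so calls below are the less firm. Adjusted p-values are from edgeR's quasi-likelihood test over all genes tested in that type, where the lone Il10-/- sample was assumed to vary like the DSS samples. That fit had no term for day, so differences between DSS days count as spread. A gene that it did not call can be called with a day term, and counts with that term are given in the last section.

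Promoter sequences of antigen presentation and interferon gamma target genes that lay above the DSS range are shown first, because genes of that kind were above it in several cell types. They are the 250 bases before the RefSeq start in GRCm38.p6, 5′ to 3′ on the gene's strand. Capitals mark matches to CTGATTGG (the Y box, part of the SXY module at which CIITA acts) or GAAA, any 2 bases and GAAA (the core of the interferon-stimulated response element, ISRE), searched on both strands. The H2-Aa promoter is chr17:34287824-34288073 (minus strand), that of H2-Eb1 chr17:34305617-34305866 (plus strand), that of Psmb9 chr17:34187331-34187580 (minus strand) and that of Igtp chr11:58199306-58199555 (plus strand).
H2-Aa: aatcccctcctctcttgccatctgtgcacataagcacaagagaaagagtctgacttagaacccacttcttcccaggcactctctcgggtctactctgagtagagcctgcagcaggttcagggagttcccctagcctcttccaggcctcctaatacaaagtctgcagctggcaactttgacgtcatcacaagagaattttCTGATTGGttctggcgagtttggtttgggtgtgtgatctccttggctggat
H2-Eb1: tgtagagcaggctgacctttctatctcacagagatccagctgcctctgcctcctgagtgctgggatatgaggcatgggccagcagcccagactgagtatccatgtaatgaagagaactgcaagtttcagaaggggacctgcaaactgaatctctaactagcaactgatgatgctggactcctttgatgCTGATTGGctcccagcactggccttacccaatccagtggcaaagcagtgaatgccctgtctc
Psmb9: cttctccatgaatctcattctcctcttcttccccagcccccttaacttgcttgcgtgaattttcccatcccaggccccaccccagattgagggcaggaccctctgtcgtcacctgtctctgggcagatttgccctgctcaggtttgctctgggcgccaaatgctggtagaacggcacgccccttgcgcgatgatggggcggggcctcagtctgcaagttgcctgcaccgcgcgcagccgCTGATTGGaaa
Igtp: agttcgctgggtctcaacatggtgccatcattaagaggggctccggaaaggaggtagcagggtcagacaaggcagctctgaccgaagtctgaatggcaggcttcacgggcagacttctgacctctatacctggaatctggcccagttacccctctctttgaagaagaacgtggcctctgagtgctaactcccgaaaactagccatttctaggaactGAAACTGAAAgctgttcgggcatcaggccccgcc
A Y box lay 51 bases before the start of H2-Aa, 62 bases before that of H2-Eb1 and 11 bases before that of Psmb9. Igtp held a response element match 34 bases before its start. Of 32851 promoter windows of this length, 3.83% held the Y box and 2.98% the response element core. Of 7 promoters searched, those of Ubd, Reg3b and Reg3g held neither motif and are not shown. These matches are descriptions of the sequence.

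Lymphocytes made up a larger share of the Il10-/- mucosa than of any DSS sample. The intervals of these shares cover the sampling of cells within 1 pool and not the spread between pools, so they set libraries apart and not conditions. T cells were 1281 of the 5831 Il10-/- cells (exact binomial 95% interval 20.9% to 23.1%). In the DSS samples they ranged from 2.35% on day 6 to 10.5% on day 16, so the Il10-/- share was 2.08 times the highest of them. B cells were 22.1% of the Il10-/- cells (21.1% to 23.2%), against 2.47% on day 6 to 17.6% on day 23. Neutrophils, at 6.09% (5.49% to 6.73%), lay below the lowest DSS share of 7.43% on day 23, but those intervals overlapped, and DSS neutrophils peaked at 38.6% on day 12. Macrophages (14.3%) were inside the DSS range of 13.6% to 40.1%. Of 28 annotated types taken as shares of all cells, B and T cells were the 2 whose share lay outside the DSS range with intervals apart. Among immune cells alone, B cells (31.6%) fell inside the range, since day 23 had 32.0%. On that base macrophages (20.4% against 24.8% to 58.8%) and neutrophils (8.70% against 13.5% to 48.4%) were below it with intervals apart. One sample against 6 cannot give a two-sided exact permutation p below 0.286.

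**Figure D1:**
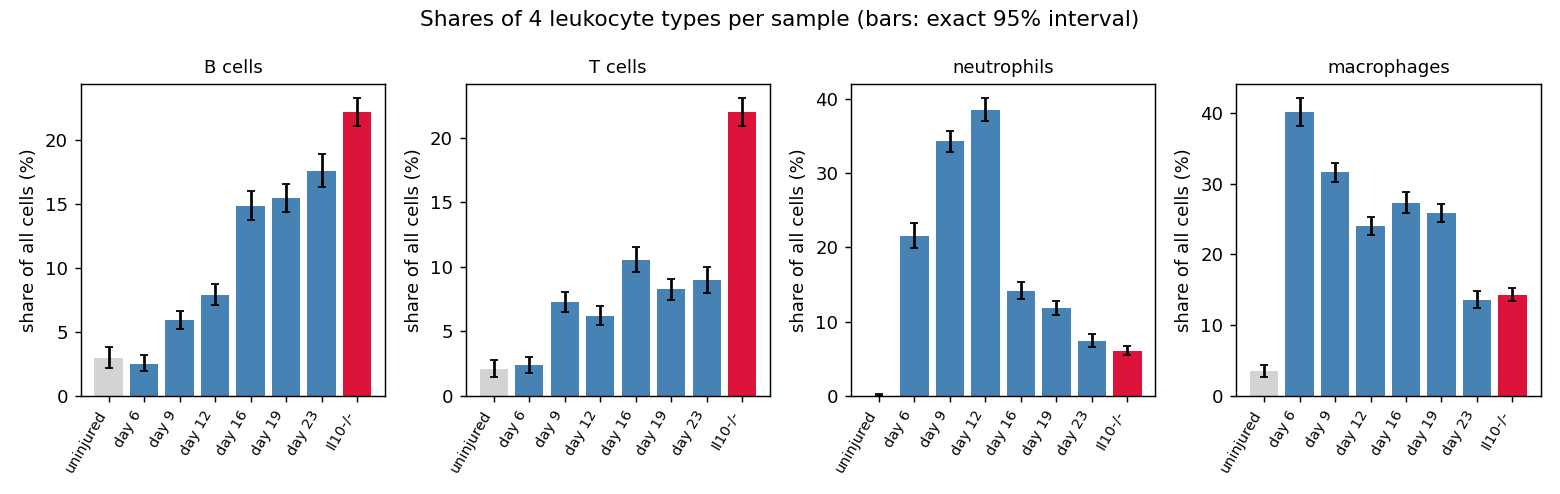
Share of all cells (%, bars) that were B cells, T cells, neutrophils and macrophages in the uninjured sample, the 6 DSS samples and the Il10-/- sample, with exact 95% binomial intervals. The Il10-/- bars for B cells (22.1%) and T cells (1281 of 5831 cells) are the tallest of their panels, while the neutrophil bar (6.09%) is below every DSS bar.

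The epithelium of Il10-/- colons carried far more MHC class II transcript than that of any DSS sample. In the Car4/Ly6g surface cells 6 of 8 class II genes tested were called above the range, in Car4 cells 5 of 7, and in Crypt-2 cells 7 of 8, with none below. Over all genes, 0.504% were called above and 0.252% below in Car4/Ly6g cells, 0.201% and 0.226% in Car4 cells, and 0.7% and 0.397% in Crypt-2 cells. The median log2 ratio of the class II genes to the DSS mean was 3.28, 2.50 and 2.89 in these 3 types, beside -0.16, -0.22 and -0.05 for all genes tested. H2-Aa, the class II alpha chain, was at 2756 CPM in Il10-/- Car4/Ly6g cells, against a DSS lowest of 77.7, median of 189 and highest of 383 CPM. The Il10-/- value was 7.19 times the highest DSS value (6.50 to 7.97), yet the edgeR test did not call it (adjusted p = 0.203). In Car4 cells H2-Aa was at 1365 CPM against 88.6, 148 and 219 CPM, and there the edgeR log2 change was 3.37 with an adjusted p of 1.21e-09. Crypt-2 cells had 1021 CPM against 61.8, 78.7 and 165 CPM (edgeR adjusted p = 0.00551).

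Cd74, the invariant chain that escorts class II molecules, was at 6267 CPM in Car4/Ly6g cells, against 204, 510 and 1223 CPM (lowest, median and highest) in DSS. H2-DMb1, which helps load peptides, was at 232 CPM against 8.12, 12.9 and 34.6 CPM (edgeR adjusted p = 0.00175). Ciita, the class II transactivator, was at 37.1 CPM against 0, 3.73 and 6.65 CPM (edgeR adjusted p = 0.0149). Its Il10-/- value stood apart from all 6 DSS values, of which 2 were 0. The summed level of 5 B cell markers was inside the DSS range in Car4/Ly6g cells (29.6 CPM against 1.95 to 35.2) and in Car4 cells (35.4 CPM against 0 to 42.9), and so was that of 6 monocyte or macrophage markers (85.5 CPM against 60.3 to 119 in Car4/Ly6g cells). In Crypt-2 cells the B cell markers were above it, at 36.5 CPM against 2.68 to 13.5 CPM. So were the T cell markers there, at 44.6 CPM against 4.65 to 16.1 CPM, and 6 fibroblast markers, at 219 CPM against 42.1 to 142 CPM. The matrix genes Sparc and Fbn1, 2 of 13 fibrillar matrix genes tested, were called above the range in Crypt-2 cells, and 19 of the 67 genes above it there were at least as high as in the other Il10-/- cells together. In Car4/Ly6g cells 24 of the 38 genes above the range were as high in that sense. Of 10 immunoglobulin constant genes tested in Car4/Ly6g cells, 2 were called above the range and 0 below. H2-Aa was at 2933 CPM over all other Il10-/- cells, close to its level in Car4/Ly6g cells, and at 2960 CPM beside Car4 cells. The part of other cells or their RNA in these epithelial values was not tested.

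**Figure D2:**
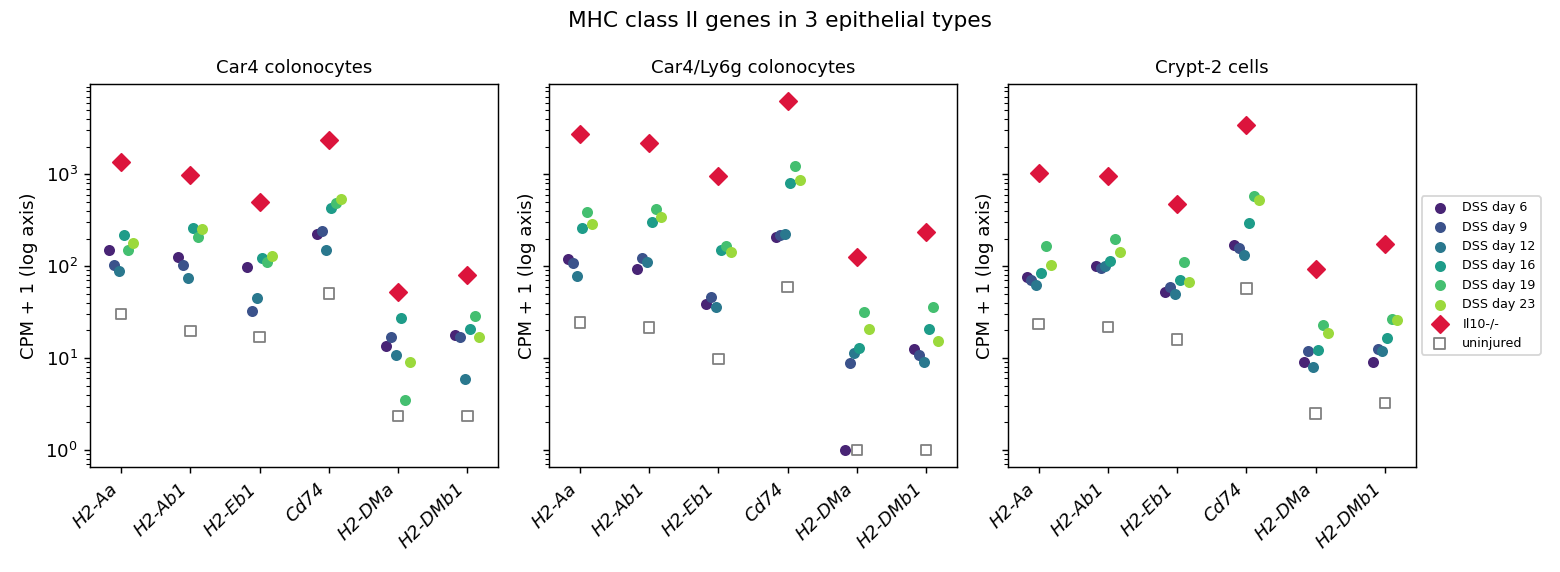
Level of 6 MHC class II genes in Car4, Car4/Ly6g and Crypt-2 epithelial cells, as CPM + 1 on a log axis, 1 point per sample (red diamonds Il10-/-, circles DSS by day, open squares uninjured). The red diamond is above all circles for every gene, as for H2-Aa in Car4/Ly6g cells at 2756 CPM against a highest DSS value of 383 CPM.

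Other epithelial genes above the range included Ubd, a ubiquitin-like modifier induced by interferon gamma and TNF. Ubd was at 817 CPM in Car4 cells against 88.6, 141 and 192 CPM (edgeR adjusted p = 1.48e-07), and at 326 CPM in Crypt-2 cells against 2.68, 20.9 and 55.1 CPM (edgeR adjusted p = 0.273). Upp1, uridine phosphorylase, was at 625 CPM in Crypt-2 cells against 60.3, 126 and 148 CPM (edgeR adjusted p = 0.00551). Fabp6, a bile acid binding protein of the ileum, was at 558 CPM in Crypt-2 cells against 6.70, 42.6 and 95.4 CPM. Ccl20, a chemokine that attracts CCR6-positive lymphocytes, was at 287 CPM against 0, 10.7 and 50.5 CPM. The edgeR adjusted p was 0.357 for Fabp6 and 0.365 for Ccl20. Serpinb11, a serpin, was at 45.7 CPM in Car4/Ly6g cells, where 4 DSS samples had none and the highest had 0.95 CPM (edgeR adjusted p = 4.31e-05).

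The antimicrobial lectins Reg3b and Reg3g were above the range in Car4 cells, at 1186 CPM against 34.5, 62.6 and 254 CPM and at 814 CPM against 12.4, 27.2 and 293 CPM. Their highest DSS values were both on day 9, and edgeR called neither (adjusted p = 0.419 and 0.623). Reg3b was inside the DSS range in Car4/Ly6g and in Crypt-2 cells. Class I antigen processing genes were called above in Crypt-2 cells for 5 of 17 tested, in Car4/Ly6g cells for 3 of 17 and in Car4 cells for 0 of 16. Psmb8, an immunoproteasome subunit, was at 430 CPM in Crypt-2 cells against 81.3, 120 and 174 CPM (edgeR adjusted p = 0.00917).

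Among epithelial genes below the range, Guca2a, the precursor of guanylin, which stimulates fluid secretion, was at 217 CPM in Car4/Ly6g cells against 797, 931 and 1585 CPM, and at 772 CPM in Crypt-2 cells against 1950, 2757 and 4731 CPM. All 6 DSS values were higher in both types, but the edgeR test called neither. Guca2a was also called below the range in neutrophils, at 21.3 CPM against 69.8 to 162 CPM. Over all cells other than Car4/Ly6g cells it was at 305 CPM in the Il10-/- sample and 851 CPM in DSS. The part of RNA from other cells in the Guca2a values was not tested. Tpm2, a tropomyosin, was at 3.22 CPM in Car4 cells against 34.5, 51.7 and 87.2 CPM (edgeR adjusted p = 0.0101). Car12, a carbonic anhydrase, was at 5.37 CPM in Crypt-2 cells against 21.1, 35.7 and 44.2 CPM (edgeR adjusted p = 0.0273). Under TMM scaling the calls were 12 above and 6 below in Car4 cells (8 and 9 by total counts), 50 and 12 in Car4/Ly6g cells (38 and 19), and 82 and 20 in Crypt-2 cells (67 and 38).

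Of the 9 types, Pi16/Pcolce2 fibroblasts, stromal cells that support the mucosa, had the most genes called by the 2-fold rule, 51 above and 77 below, or 0.506% and 0.764% of 10072 genes tested. Class I and immunoproteasome genes were called above for 11 of 17 tested, with a median log2 ratio of 1.78 beside -0.01 for all genes. B2m, the class I light chain, was at 6963 CPM against 1030, 1572 and 1930 CPM (edgeR adjusted p = 0.000204). H2-D1, a class I heavy chain, was at 3160 CPM against 496, 642 and 816 CPM (edgeR adjusted p = 2.67e-05). Psmb8 was at 292 CPM against 39.4, 60.2 and 68.6 CPM (edgeR adjusted p = 4.63e-06). The Il10-/- value of each was above all 6 DSS values and above the uninjured sample. H2-Q7 (253 CPM against 17.5, 29.5 and 42.3 CPM) and its near copy H2-Q6 may share reads, so their separate values are uncertain. Interferon gamma target genes were called above for 7 of 18 tested, among them Igtp, an immunity-related GTPase, at 162 CPM against 7.48, 25.9 and 35.4 CPM (edgeR adjusted p = 0.00758). Of the class II genes, 0 of 9 were called in this type. By total counts, interferon gamma target genes were also called above in Crypt-2 cells (5 of 15) and Car4/Ly6g cells (2 of 17). None was called in the other types, such as Adamdec1/Bmp4 fibroblasts (0 of 16) and macrophages (0 of 20). Class I genes had, by total counts, 0 of 17 called in each of B cells, T cells, macrophages and neutrophils.

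Inflammatory fibroblast genes were called below for 5 of 24 tested (Il6, Csf3, Cxcl12, Ptgs2 and Grem1) and above for none, with a median log2 ratio of -2.03. Il6 was at 191 CPM against 641, 927 and 1919 CPM (edgeR adjusted p = 0.172). Ptgs2, the inducible prostaglandin synthase, was at 68.9 CPM against 280 to 1543 CPM, with a DSS median of 558 CPM (edgeR adjusted p = 0.28). Both were highest on day 6 of DSS. Grem1, a BMP antagonist of the crypt niche, was at 134 CPM against 417, 538 and 678 CPM (edgeR adjusted p = 0.00109). Cxcl12, a chemokine that retains leukocytes, was at 318 CPM against 740, 1049 and 1345 CPM (edgeR adjusted p = 0.00758). Col6a3, a collagen VI chain, was at 328 CPM against 742, 876 and 1020 CPM (edgeR adjusted p = 0.00553).

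Most of these genes were lower still in uninjured mucosa. Il6 was at 87.4 CPM, Ptgs2 at 48.7 CPM and Grem1 at 45.7 CPM in uninjured Pi16/Pcolce2 fibroblasts, while Cxcl12 was at 120 CPM and Col6a3, higher than in Il10-/- cells, at 727 CPM. With the uninjured sample added to the range, 7 genes in place of 77 were below it. The T cell markers in these fibroblasts were at 44.0 CPM in the Il10-/- sample, above the DSS range of 0.842 to 16.4 CPM, and the B cell markers at 54.7 CPM against 4.21 to 42.7 CPM. Their part in these results was not tested.

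**Figure D3:**
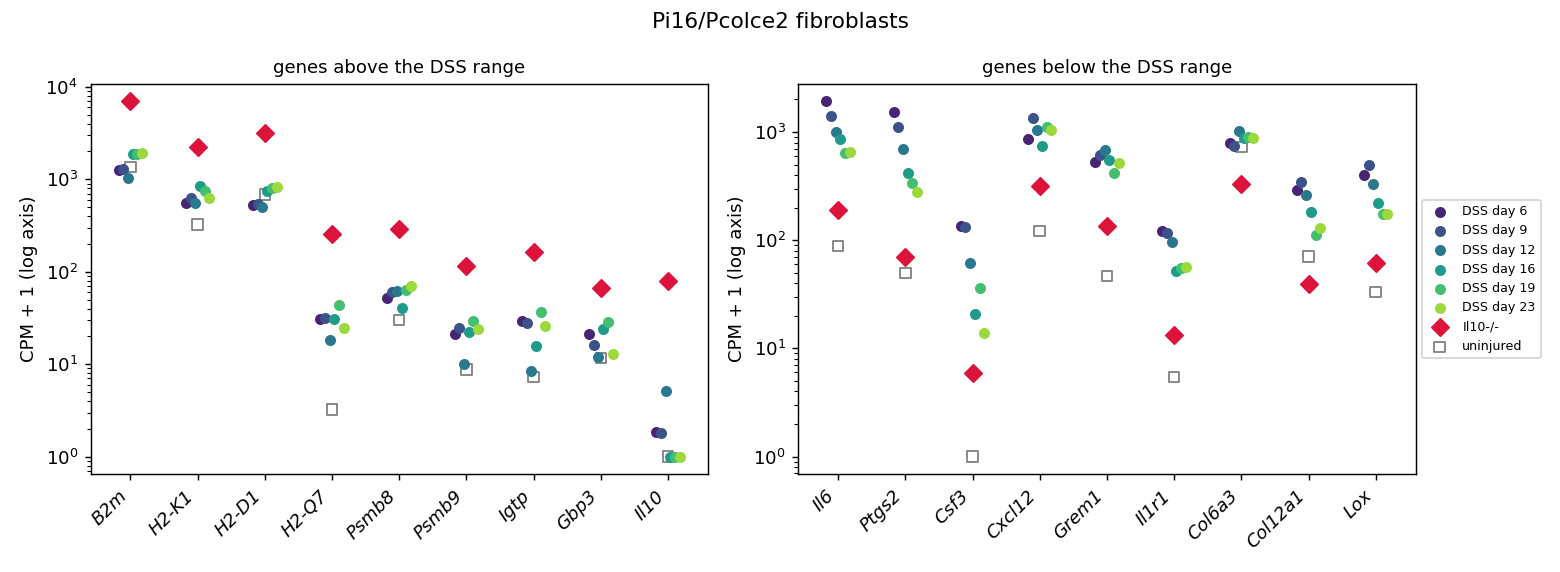
Level of 9 genes above (left) and 9 genes below (right) the DSS range in Pi16/Pcolce2 fibroblasts, as CPM + 1 on a log axis, 1 point per sample. Red diamonds (Il10-/-) are above all DSS circles on the left, as for B2m at 6963 CPM, and below all of them on the right, as for Il6 at 191 CPM.

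Adamdec1/Bmp4 fibroblasts, which lie close to the epithelium, had 13 genes above and 28 below the range (0.149% and 0.32% of 8743 tested), or 19 and 24 under TMM scaling. H2-D1 was at 2681 CPM against 701, 955 and 1269 CPM (edgeR adjusted p = 0.016). T cell markers were at 97.5 CPM in this type against 0 to 24.4 CPM, and blood endothelium markers at 26.4 CPM against 6.23 to 16.1 CPM. Pi16, a marker of the other fibroblast type, and Plvap, an endothelial gene, were among the 13 genes above the range. The part of other cells was not tested. Ereg, an EGF receptor ligand of epithelial repair, was at 152 CPM against 565, 841 and 3452 CPM (edgeR adjusted p = 0.754). Nrg1, another EGF family ligand, was at 40.6 CPM against 95, 203 and 665 CPM (edgeR adjusted p = 0.792). Both were highest on day 6 of DSS. Col6a3 was at 146 CPM against 484, 585 and 890 CPM (edgeR adjusted p = 0.016). With the uninjured sample in the range, 5 genes in place of 28 were below it.

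In macrophages 30 genes were above and 39 below the range (0.287% and 0.373% of 10456 tested), or 36 and 27 under TMM scaling. Ccl1, a ligand of CCR8, was at 49.6 CPM in the Il10-/- sample, while 4 DSS samples had none and the highest had 0.536 CPM (edgeR adjusted p = 6.96e-07). Xcl1, a chemokine for cross-presenting dendritic cells, was at 34.7 CPM against 0.991, 1.51 and 2.14 CPM (edgeR adjusted p = 2.31e-06). The T cell markers in macrophages were at 38.4 CPM, above the DSS range of 6.91 to 23.2 CPM, and Xcl1 was at 33.1 CPM over all other Il10-/- cells. Their part in the Xcl1 result was not tested. Lyz1, a lysozyme whose reads may be shared with its close relative Lyz2, was at 233 CPM against 3.49, 12.3 and 19.8 CPM (edgeR adjusted p = 0.0258). Retnla, a marker of alternative activation, was at 1104 CPM against 0, 66.6 and 154 CPM (edgeR adjusted p = 0.399). The 63 uninjured macrophages had more of both, at 1901 CPM for Lyz1 and 8924 CPM for Retnla, so neither was above a range that included them.

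Several inflammatory genes were lower in Il10-/- macrophages than on any DSS day. Of 27 inflammatory myeloid genes, 4 (Il23a, Nos2, Ccl4 and Cxcl3) were called below and none above, with a median log2 ratio of -0.89; under TMM scaling Ccl4 and Cxcl3 were not called. Nos2, the inducible nitric oxide synthase, was at 32.3 CPM against 125, 204 and 485 CPM. Il1rn, the interleukin 1 receptor antagonist and the 1 gene called of 14 interleukin 10 response genes, was at 455 CPM against 1049, 1373 and 2539 CPM. Slpi, outside these lists, a leukocyte protease inhibitor, was at 155 CPM against 874, 1370 and 2940 CPM. The Il10-/- value of each was below all 6 DSS values, but edgeR called none of the 3 (adjusted p = 0.337, 0.284 and 0.286). Ckap2l, a mitotic spindle protein, was at 4.89 CPM against 19.3, 24.3 and 29.5 CPM (edgeR adjusted p = 0.0258). With the uninjured sample in the range, 6 macrophage genes in place of 39 were below it. Slpi was also lower over all cells other than macrophages, at 433 CPM in the Il10-/- sample and 1548 CPM in DSS. The part of RNA from other cells in the Slpi values was not tested.

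In neutrophils the balance of calls turned with the scaling. By total counts 21 genes were above and 50 below (0.302% and 0.72% of 6944 tested), while TMM scaling gave 47 above and 11 below. The median log2 ratio of all genes was -0.37 by total counts, and the summed level of 5 neutrophil markers was 304614 CPM in the Il10-/- sample against 109990 to 278637 CPM in DSS. Low values in this type are therefore reported only where both scalings called them. Of 24 neutrophil maturity and activation genes tested, 3 were called above the range under either scaling, and 1 was below it by total counts alone. Ngp, Ltf and Camp, granule proteins of immature neutrophils, were above the range under both scalings. Ngp was at 5606 CPM against 23.6, 542 and 992 CPM, Ltf at 864 CPM against 23.6, 55.3 and 171 CPM. Their edgeR adjusted p was 0.493 and 0.211. Ksr1, a scaffold of the MAP kinase cascade, was at 3.41 CPM against 13.5, 20.2 and 28.0 CPM (edgeR adjusted p = 0.328). Of the 50 genes below by total counts, 10 were also below under TMM scaling, and so were 19 of the 21 above. Monocyte or macrophage markers were also above the range here (2705 CPM against 764 to 1217 CPM), and their part was not tested. Ngp was called above the range in macrophages too.

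**Figure D4:**
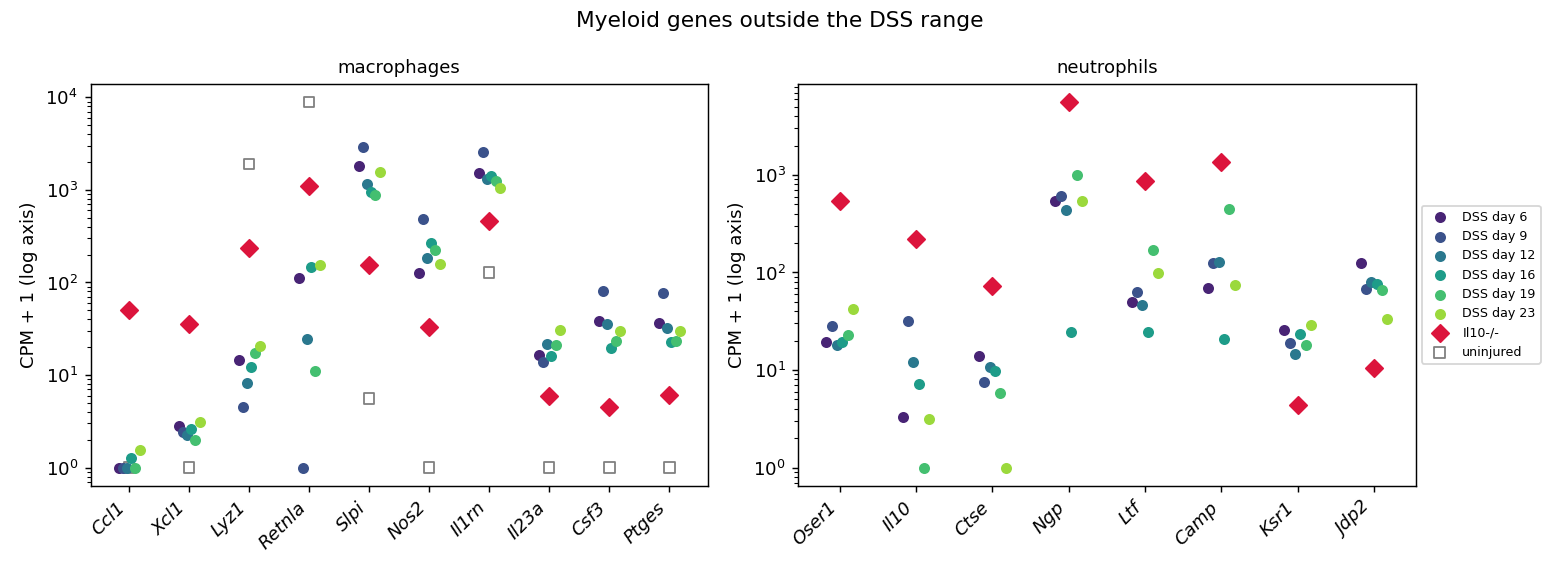
Level of 10 genes in macrophages (left) and 8 genes in neutrophils (right), as CPM + 1 on a log axis, 1 point per sample. The uninjured sample held no neutrophils. Red diamonds (Il10-/-) lie outside all DSS circles, as for Ccl1 in macrophages at 49.6 CPM and Oser1 in neutrophils at 538 CPM (Jdp2 by total counts alone), while the open square of Retnla is higher still at 8924 CPM.

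T cells had 10 genes above and 7 below the range (0.118% and 0.0823% of 8503 tested). Elavl2, an RNA-binding protein best known from neurons, was at 34.6 CPM, and 5 DSS samples had none (edgeR adjusted p = 1.92e-11). Gzmk, a granzyme of effector memory T cells, was at 27.7 CPM against 0, 6.04 and 12.4 CPM (edgeR adjusted p = 0.0113). Pde5a, a cyclic GMP phosphodiesterase, was at 71.0 CPM against 12.4, 22.1 and 26.7 CPM (edgeR adjusted p = 3.91e-05). Il17a was at 1830 CPM against 268, 529 and 1547 CPM, which missed the 2-fold limit, and Ifng, at 307 CPM, was close to the lowest DSS value of 320 CPM. Of the 7 genes below the range, Kit, a receptor found on innate lymphoid and mast cells, was at 14.9 CPM against 56.8, 86.2 and 198 CPM (edgeR adjusted p = 1.17e-05). Klra7, a natural killer receptor, was at 28.7 CPM against 63.5, 80.7 and 233 CPM (edgeR adjusted p = 0.04). Klra4 had no count in the Il10-/- T cells against 8.87, 18.1 and 60.2 CPM (edgeR adjusted p = 0.537). With a floor of 3 counts this was 8.12-fold lower than the lowest DSS value. The exact interval of the count ratio to that DSS sample reached up to 0.209, so 8.12 is not a lower bound. Klra genes resemble each other closely, so reads may be split among them.

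B cells had 7 genes above and 1 below (0.0871% and 0.0124% of 8040 tested). Ffar2, a receptor for short-chain fatty acids, was at 40.6 CPM against 0, 9.24 and 15.7 CPM (edgeR adjusted p = 1.88e-05). Cd1d1, which presents lipids, was at 38.1 CPM against 0, 15.7 and 17.2 CPM (edgeR adjusted p = 0.0193). Nt5e, the ecto-nucleotidase CD73, was at 23.0 CPM against 0, 3.69 and 9.11 CPM (edgeR adjusted p = 0.00177). T cell markers in B cells were at 69.9 CPM against 0 to 36.3 CPM, and their part was not tested. In plasma cells, compared as shares of heavy chain constant region counts, Ighg2c was 2.93% of the Il10-/- counts (exact binomial 95% interval 2.88% to 2.98%) and 0% to 1.25% in the DSS samples, a ratio of 2.34 to the highest. That interval takes 424041 counts from 232 cells as independent draws. It is therefore too narrow and does not cover the spread between cells, clones or pools. With 9 DSS samples the highest was 2.07% (day 18), a ratio of 1.42. Ighg1 was 0.00542% against 0.0384% to 1.23%, below all 6. Igha dominated everywhere, at 93.6% against 92.8% to 99.7%. DSS samples held only 24 to 365 plasma cells, and cells of 1 clone share their class.

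Il10 transcript itself was present in the Il10-/- sample, at 55.1 CPM over all cells against 5.46 to 19.96 CPM in the DSS samples. The counts are tags from transcript ends and need not cover the disrupted part, so they check nothing about the deletion. Il10 was above the range in neutrophils (217 CPM against 0, 4.26 and 30.9 CPM), in Pi16/Pcolce2 fibroblasts (78.1 CPM against 0, 0.398 and 4.16 CPM) and in Adamdec1/Bmp4 fibroblasts (44.7 CPM, with no count in any DSS sample). The edgeR adjusted p was 0.461, 3.86e-06 and 0.00283. Il10 was also above all 6 DSS values in macrophages, at 52.4 CPM against 9.66, 19.1 and 30.2 CPM, short of the 2-fold limit. In lymphatic cells (90 in the Il10-/- sample and 15 to 49 in DSS samples) it had 69 counts, or 302 CPM, and none in any DSS sample. In T cells, at 114 CPM, it was inside the DSS range of 0 to 235 CPM.

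Some genes were above the range in several types, 19 of them in 3 or more. Across the 9 types 414 genes were called at least once, 174 only above and 240 only below, and none in both directions. Oser1, an oxidative stress responsive gene, was above in 5 types, among them neutrophils at 538 CPM against 17.2, 20.3 and 40.9 CPM (edgeR adjusted p = 3.02e-06) and T cells at 196 CPM against 11.7, 26.4 and 54.1 CPM (edgeR adjusted p = 3.27e-13). Ctse, the protease cathepsin E, was above in 3 types, among them T cells at 72.0 CPM against 0, 1.81 and 5.57 CPM (edgeR adjusted p = 3.81e-15). Ctse lies on chromosome 1, 0.616 Mb from Il10. Il17a, Trbc2 and Ctla4, genes of T cells, were each above the range in 3 types. Crypt-2 cells were among the types for each of them, and T cells were not. The part of T cells or their RNA in these calls was not tested.

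**Figure D5:**
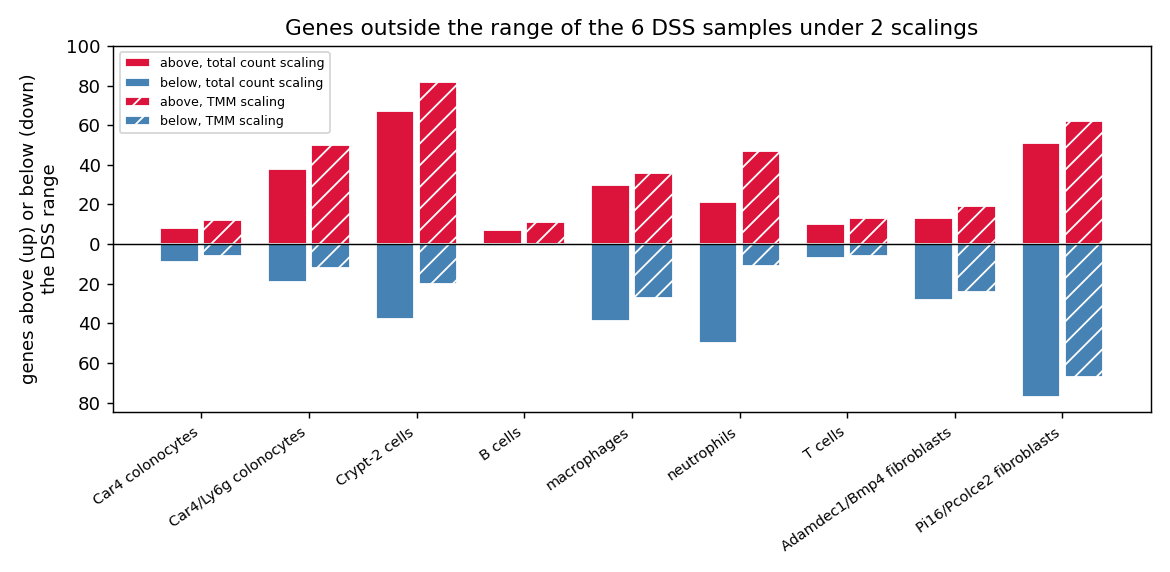
Number of genes above (red, upwards) and below (blue, downwards) the range of the 6 DSS samples in each of 9 cell types, by total count scaling (plain) and TMM scaling (hatched). In neutrophils the calls go from 21 above and 50 below to 47 and 11, and in Pi16/Pcolce2 fibroblasts from 51 and 77 to 62 and 67.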

How the data were processed

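Single-cell RNA was measured in colon mucosa pools. The authors deposited UMI counts, as whole numbers, beside a cell annotation; Cell Ranger 3.0.0 and mm10 are named per the submitters' processing notes. No doublet caller was run. Counts were summed per sample and annotated type. Genes on X or Y, mitochondrial genes and 597 rows without a gene name (0.445% to 0.577% of counts per sample) were left out, and genes needed 30 counts over the 7 samples. Positions came from GENCODE annotation of GRCm38. The cell table holds 3 further libraries (12621 cells) that were not analysed here.

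CPM used total counts, with TMM as an alternative. On simulated counts the rule recovered changed genes, which were well counted and moved further than the 2-fold limit. The simulated samples had the same profile and no course of days. Recovery of smaller changes or of rare genes was not measured. Where simulated libraries varied, the rule called more unchanged genes below than above the range, and raised abundant genes added to this. Counts of genes below the range are therefore less firm than counts above. edgeR 4.0.16 (R 4.3.3) gave Benjamini-Hochberg adjusted p-values. Named genes were, per type and direction, the 5 farthest from the nearest DSS sample among called genes at least as high in that type as elsewhere, the 8 called in most types, the list members with the largest ratios, and Il10. Further list members (among them B2m, Nos2, Camp, Nt5e, Il17a and Ifng) were chosen after their values were seen. Members and lists were chosen with earlier results of these data known. Other settings were the filter on counts, the samples setting the range, a day term and cells with at least 1000 UMIs.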

Additional observations from a re-analysis of the deposited data

How the results depend on the processing

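No paired analysis was possible because the Il10-/- group is 1 sample. Counts of genes are given as above or below the range. Without a filter on low counts the calls above were 41 in Car4, 65 in Car4/Ly6g, 27 in B, 36 in neutrophil, 32 in T, 35 in Adamdec1/Bmp4 and 79 in Pi16/Pcolce2 cells; with at least 100 counts they were 36 in Crypt-2, 4 in B and 4 in Adamdec1/Bmp4 cells, with 0 below in B cells. TMM scaling gave 12 below in Car4/Ly6g, 20 below in Crypt-2, 11 above in B, and 47 above and 11 below in neutrophils. With 9 DSS samples setting the range (3 of them run fresh in another batch), 41 and 5 were called in Crypt-2, 4 above in B, 19 and 5 in macrophages and 9 above in neutrophils, and Ighg1 in plasma cells (log2 ratio -6.10) was no longer below it. With the uninjured sample added, 10 were below in Car4/Ly6g, 17 in Crypt-2, 3 in T, 5 in Adamdec1/Bmp4 and 7 in Pi16/Pcolce2 cells, macrophages had 16 and 6, and Lyz1 (-0.28) and Retnla (-0.28) reversed. Neutrophils gave no value there, since the uninjured sample held none. Cells with at least 1000 UMIs left 0 below in B cells. Among immune cells the B cell share (log2 ratio 1.01) was inside the range.

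The edgeR test called 2 below in Car4, 18 and 0 in Car4/Ly6g, 30 and 6 in Crypt-2, 34 and 6 in B, 11 and 3 in macrophages, 4 and 0 in neutrophils, 30 and 16 in T, 1 below in Adamdec1/Bmp4 and 139 above in Pi16/Pcolce2 cells. At an unadjusted p under 0.05 it gave 199 below in Car4/Ly6g cells and 262 below in neutrophils. With a linear day term it called 18 and 3 in Car4, 7 below in Car4/Ly6g, 19 below in Crypt-2, 69 and 35 in B, 310 and 324 in macrophages, 3 below in neutrophils, 96 and 67 in T, 78 and 54 in Adamdec1/Bmp4, and 552 and 539 in Pi16/Pcolce2 cells. The cause of these differences was not tested. Where only 1 direction of edgeR calls is given for a type, genes were also called in the other direction. Of 111 named values, 51 passed edgeR, 100 were called under TMM and 87 with 9 DSS samples.

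Leaving out 1 DSS sample in turn gave 9 to 10 above and 10 to 15 below in Car4, 38 to 54 and 23 to 30 in Car4/Ly6g, 71 to 84 and 42 to 50 in Crypt-2, 8 to 13 and 1 to 10 in B, 31 to 61 and 40 to 89 in macrophages, 23 to 33 and 52 to 84 in neutrophils, 12 to 20 and 7 to 20 in T, 14 to 20 and 30 to 52 in Adamdec1/Bmp4, and 53 to 77 and 80 to 124 in Pi16/Pcolce2 cells. Day 23 gave the highest count in 13 of these 18. A gene beyond the full DSS range stays beyond a range set by fewer samples, so leaving a sample out mostly adds calls. These counts therefore cannot tell whether the calls are stable, and no conclusion is drawn from their rise. The log2 ratio of the T cell share ran from 1.42 to 1.74 and that of the B cell share from 0.85 to 1.25.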
